A study of Ursus arctos with 12 samples.

Results

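The genes described here were 9 genes of tissue macrophages and of the complement system, measured in the thigh muscle of brown bears in winter and in summer. They were taken by symbol from the table of read counts: the macrophage genes CD68, CSF1R, CD163, MRC1 and AIF1, the C1q chains C1QA, C1QB and C1QC, and the complement component C3. All 9 had a row among the 30249 genes of the table, and all 9 were among the 17290 genes with at least 30 reads over the 12 libraries. Muscle RNA came from biopsies of the vastus lateralis of 6 free-ranging brown bears (Ursus arctos), 2–3 years old. Each bear gave 1 library in hibernation (winter) and 1 in its active period (summer), and by the study's methods it was captured and anesthetized both times, in February and in June of one year. A biopsy holds fibres, vessels, connective tissue, fat and blood together, so fewer cells of a type and less RNA per cell cannot be told apart in these counts.

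Macrophages are phagocytes that reside between muscle fibres, clear debris and take part in repair. CSF1R is the receptor through which the growth factors CSF1 and IL34 maintain them, CD163 and MRC1 are scavenger and mannose receptors at their surface, CD68 is a lysosomal glycoprotein and AIF1 an actin-binding protein of myeloid cells. C1q, the recognition molecule of the classical complement pathway, is built from chains A, B and C and is secreted largely by macrophages and dendritic cells outside the liver. It binds immune complexes and dying cells and activates the proteases C1r and C1s, which leads to cleavage of C3, the component on which all complement pathways converge.

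Between 16742406 and 32140160 reads were counted per library, with a median of 23380174.5 in summer and 22101966.5 in winter. Winter was compared with summer over all genes by edgeR's quasi-likelihood test, and a gene was called at a Benjamini-Hochberg adjusted p below 0.05. By this rule 19.9% of the genes tested were lower and 19.6% higher in winter. In either direction it called 39.5%. Levels are given as CPM, reads scaled to a common library size with TMM, and changes as log2 fold changes of winter over summer with their standard error (SE). In every library 13 muscle fibre genes summed to between 132534 and 211156 CPM. The winter library of bear 1509 lay at −98.6 on the second principal component and the other 11 libraries at −8.16 to 29.4, so the seasonal changes were also computed without it, as were the correlations over libraries.

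In winter, 7 of the 9 genes fell, where 19.9% of all genes tested did so, and 0 rose, where 19.6% of all genes did. The median of their log2 fold changes was −0.84, against −0.0022 for all genes tested. The C1q chains fell 3.09- to 4.90-fold, C3 fell 1.95-fold, and AIF1, CSF1R and MRC1 fell 1.48- to 1.76-fold. CD163 and CD68 were not called. With a log2 fold change below −1 as well, 3 of the 9 were lower, where 8.93% of all genes were. In 6 of 6 bears 5 of the 9 were lower (19% of all genes) and 0 were higher (18.4% of all genes). At an unadjusted p below 0.05, 8 genes were lower and 0 higher, and a replicate block for the bear in edgeR, DESeq2 and limma voom gave 7 lower and 0 higher each. Without bear 1305 or without bear 1317 only 4 of the 9 were called.

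**Figure D1:**
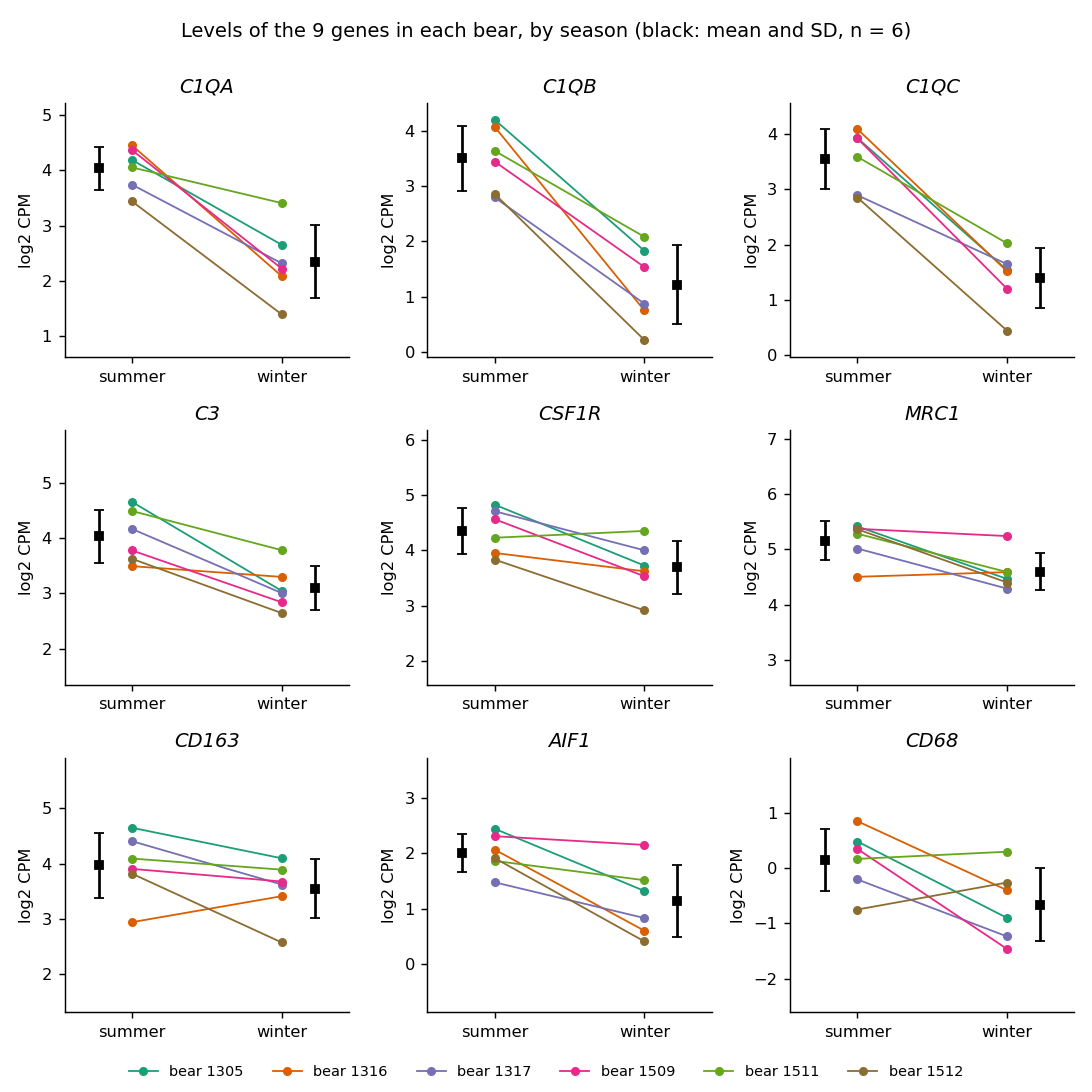
Level of each of the 9 genes in log2 CPM (vertical axis, the same span of 4.6 units in every panel) in summer and winter, with a coloured line for each bear and the mean and SD of 6 bears in black. The winter points of C1QA, C1QB and C1QC all lie below the summer points, while those of the other 6 genes overlap.

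C1QA, which encodes the A chain, had 18.1 CPM in bear 1305, 21.8 in bear 1316, 13.3 in bear 1317, 20.5 in bear 1509, 16.5 in bear 1511 and 10.8 in bear 1512 in summer. In winter the same bears had 6.20, 4.16, 4.90, 4.58, 10.5 and 2.54 CPM. The highest winter library, that of bear 1511, thus lay just under the lowest summer library, that of bear 1512, and the seasons did not overlap. The mean over 6 bears was 4.04 ± 0.39 (SD) in summer and 2.35 ± 0.67 in winter on the log2 CPM scale, and the fitted log2 fold change was −1.63 ± 0.28 (SE, adjusted p = 0.000613).

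C1QB, the B chain, had 18.3, 16.7, 6.86, 10.8, 12.4 and 7.16 CPM in summer in bears 1305, 1316, 1317, 1509, 1511 and 1512. Its winter levels were 3.47, 1.596, 1.74, 2.81, 4.15 and 1.07 CPM in the same order. Every bear was lower in winter, from a difference of −3.32 on the log2 scale in bear 1316 to −1.56 in bear 1511. Means over 6 bears were 3.50 ± 0.59 (SD) and 1.21 ± 0.72 log2 CPM in summer and winter, with a fitted log2 fold change of −2.29 ± 0.34 (SE, adjusted p = 0.000203). This was the largest fall of the 9 genes.

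C1QC, the C chain, stood at 15.1, 16.9, 7.34, 15.1, 11.9 and 7.12 CPM in summer and at 2.82, 2.77, 3.04, 2.21, 3.97 and 1.27 CPM in winter, in the same order of bears. Its log2 fold change was −2.20 ± 0.28 (SE, adjusted p = 7.26e-05), from −2.72 in bear 1509 to −1.25 in bear 1317. The 3 chains were thus the genes of the 9 without overlap between the seasons, which 8.21% of all genes tested showed in this direction, and 0 of the 9 were without overlap and higher, as 9.12% of all genes were. Their reads per library ran from 31 to 503. Without the winter library of bear 1509 their log2 fold changes were −1.58, −2.34 and −2.16, and the adjusted p of each chain stayed below 0.05 under every alternative, the highest being 0.00436 for C1QA.

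C3 had 25.1 CPM in bear 1305, 11.2 in bear 1316, 17.8 in bear 1317, 13.6 in bear 1509, 22.4 in bear 1511 and 12.2 in bear 1512 in summer. In winter these bears had 8.16, 9.74, 7.94, 7.06, 13.7 and 6.15 CPM. Each bear was lower in winter, with bear 1316 changing least, at −0.19 on the log2 scale, and the winter level of bear 1511 lay above the summer levels of bears 1316, 1509 and 1512. The log2 fold change was −0.96 ± 0.23 (SE, adjusted p = 0.00525), and the call held under every alternative at an adjusted p of 0.05.

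CSF1R, the receptor for CSF1 and IL34, ranged from 14.2 to 28.3 CPM in summer (median 21.1) and from 7.46 to 20.3 CPM in winter (median 12.7). It was lower in 5 of 6 bears, at −1.10 to −0.33 on the log2 scale, and higher in bear 1511, at 0.12. Its log2 fold change was −0.65 ± 0.23 (SE, adjusted p = 0.0355). The call was lost without bear 1305 (adjusted p = 0.12), 1316 (0.053), 1317 (0.0779) or 1509 (0.109) and without the winter library of bear 1509 alone (0.0579).

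MRC1, the mannose receptor, ranged from 22.6 to 42.6 CPM in summer (median 40.0) and from 19.5 to 37.7 CPM in winter (median 23.0). Bears 1305 and 1512 showed the largest falls, of 0.95 and 0.96 on the log2 scale, while bear 1509 fell by 0.13 and bear 1316 was higher by 0.08. The log2 fold change was −0.56 ± 0.18 (SE, adjusted p = 0.0236), lower in 5 of 6 bears. The winter library of bear 1509, at 37.7 CPM, stood above the other winter libraries at 19.5 to 24.0 CPM, and without it the log2 fold change was −0.72 (adjusted p = 0.00206). The call was lost without bear 1305 (adjusted p = 0.0913), 1317 (0.0582), 1511 (0.066) or 1512 (0.0914).

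CD163, the scavenger receptor for haptoglobin-bound hemoglobin, ranged from 7.58 to 25.0 CPM in summer (median 15.9) and from 5.86 to 17.02 CPM in winter (median 12.5). It was lower in 5 of 6 bears and 0.47 higher on the log2 scale in bear 1316, whose summer level was the lowest. With a log2 fold change of −0.45 ± 0.27 (SE, adjusted p = 0.204) it was not called in any alternative, where the adjusted p ran from 0.0901 to 0.385.

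AIF1 ranged from 2.69 to 5.35 CPM in summer (median 3.89) and from 1.24 to 4.36 CPM in winter (median 2.05). It was lower in 6 of 6 bears, from −0.16 on the log2 scale in bear 1509 to −1.51 in bear 1512, with a log2 fold change of −0.81 ± 0.29 (SE, adjusted p = 0.0376). Without the winter library of bear 1509 it was −1.09 (adjusted p = 0.0034). The call was lost without bear 1305 (adjusted p = 0.115), 1316 (0.11), 1317 (0.0607), 1511 (0.0517) or 1512 (0.0917).

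CD68 was counted at only 5 to 36 reads per library, the fewest of the 9 genes, so its levels carry the widest counting error among them. It ranged from 0.509 to 1.72 CPM in summer (median 1.11) and from 0.276 to 1.14 CPM in winter (median 0.56). In bears 1305, 1316, 1317 and 1509 it changed by −1.81 to −1.03 on the log2 scale, and in bears 1511 and 1512 it was 0.13 and 0.49 higher. The log2 fold change was −0.84 ± 0.38 (SE, adjusted p = 0.0876). Without bear 1511 it was called, at −1.11 (adjusted p = 0.0454).

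**Figure D2:**
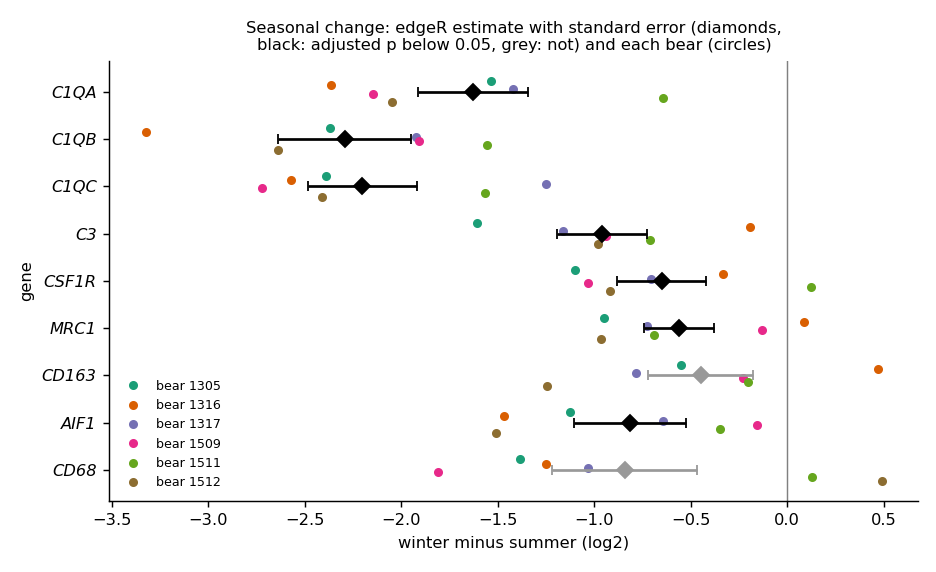
Winter minus summer change on the log2 scale for the 9 genes, with the edgeR estimate and its standard error as a diamond (black where called, grey where not) and each bear as a circle. The C1q chains lie at −2.29 to −1.63, C3 at −0.96, and the 5 macrophage genes between −0.84 and −0.45.

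Differences between genes in their seasonal change were tested within bears for 6 pairs, by an exact two-sided permutation test that flips the sign of each bear's difference, with 0.03125 as the smallest p it allows. C1QA fell less than C1QB in 5 of 6 bears, with a mean difference of 0.59 ± 0.44 on the log2 scale (SD, n = 6 bears, exact p = 0.0625, adjusted over the 6 pairs 0.188). Against C1QC the difference was 0.46 ± 0.41 (exact p = 0.0625, adjusted 0.188), in 5 of 6 bears. The seasonal changes of C1QB and C1QC differed by −0.14 ± 0.57 (exact p = 0.625), those of C3 and C1QA by 0.76 ± 0.88 (exact p = 0.125), those of CD163 and CD68 by 0.39 ± 1.3 (exact p = 0.531) and those of MRC1 and CD68 by 0.25 ± 1.21 (exact p = 0.656). None of these 6 differences passed the threshold (adjusted p 0.188 to 0.656). With 6 bears, a pair could pass only if most of the 6 pairs reached the smallest exact p. The test therefore cannot show that the changes of any pair were alike. Single bears ran from −1.73 to 1.72 for CD163 against CD68.

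The chains of C1q were also set beside the macrophage receptors, a comparison chosen after the values were seen and given without a test. C1QB and C1QC fell more than CSF1R, CD163 and MRC1 in 6 of 6 bears each. C1QA fell more than CSF1R and CD163 in 6 of 6 bears and more than MRC1 in 5 of 6. The mean differences lay between −1.03 (C1QA beside CSF1R) and −1.86 (C1QB beside CD163) on the log2 scale. In bear 1511, where CSF1R and CD68 were higher in winter, the mean change of the 3 chains was −1.26, the smallest of the 6 bears. In bear 1316, where CD163 and MRC1 were higher in winter, it was −2.75, the largest. All 9 genes were lower in winter in bears 1305, 1317 and 1509, 8 in bear 1512 and 7 in bears 1316 and 1511.

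After each season's mean was subtracted, the deviations of the 3 chains ran together over the 12 libraries, with Pearson's r of 0.89 for C1QA and C1QC, 0.86 for C1QA and C1QB and 0.80 for C1QB and C1QC. CSF1R and CD163 followed at 0.77, AIF1 and C1QB at 0.76 and CSF1R and C3 at 0.74. Over the 36 pairs the median was 0.42, 31 were above 0, and the lowest was −0.41, for CD68 and MRC1. Without the winter library of bear 1509, a setting chosen after seeing the data, the 3 chains stood at 0.84 to 0.89 with each other, the median was 0.49 and the lowest −0.25, for CD68 and CD163. Leaving it out also moved AIF1 from 0.56 to 0.83 with C1QA and from 0.47 to 0.76 with C1QC. These are descriptions over libraries that share depth, scaling and tissue makeup. By the same measure, among 10345 genes with a symbol and a mean of at least 1 log2 CPM, those most like C1QB were CD14, the lipopolysaccharide co-receptor of monocytes and macrophages (0.87), CNOT3 (0.86) and C1QA (0.86). For C1QA they were CNOT3 (0.96), TMEM8B (0.93) and VAT1 (0.91), and for C1QC TMEM225B (0.94), ARSD (0.91) and CENPX (0.90). AIF1 lay closest to MRPS5 (0.93), ARHGDIB (0.90), a GTPase regulator of blood cells, and PDE6D (0.89). CSF1R lay closest to SDK1 (0.92), RAB32 (0.91) and ADGRD1 (0.89), and MRC1 to ZC4H2 (0.93), DLG1 (0.90) and TBCK (0.90). For CD163 the closest were OSBPL10 (0.91), SLC6A6 (0.88) and SEPT2 (0.84), for C3 FXYD6 (0.86), PAPSS2 (0.84) and IP6K3 (0.83), and for CD68 MARCH2 (0.95), PRMT2 (0.94) and CDPF1 (0.93). Without the winter library of bear 1509 these 27 correlations lay between 0.80 and 0.96. The genes were not picked anew for this setting, so it is no check of the likeness. The highest of 10345 correlations over 12 libraries are large by selection.

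The chains were also set beside 6 genes of other cells by this measure. Of the 6, C1QA, C1QB and C1QC correlated most with ACTA1, the skeletal muscle actin (0.74, 0.58 and 0.80). Values were lower with COL1A1, a fibrillar collagen (0.52, 0.55 and 0.33), and ADIPOQ, the adipocyte hormone adiponectin (0.52, 0.55 and 0.37). None of these correlations over 12 libraries was tested. Values were nearer 0 with those of PDGFRA, a growth factor receptor of fibroblasts (0.10, 0.03 and −0.10), of PECAM1, an endothelial adhesion molecule (−0.00016, −0.08 and −0.06), and of PTPRC, the leukocyte antigen CD45 (−0.16, 0.02 and −0.25). Without the winter library of bear 1509 the values were 0.79, 0.76 and 0.85 with ACTA1 and 0.66, 0.55 and 0.46 with COL1A1. With ADIPOQ they were then 0.51, 0.58 and 0.36, and with PDGFRA, PECAM1 and PTPRC between −0.23 and 0.10. The part of these cells in the seasonal changes of C1q was not tested.

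Other complement genes were called in both directions, where 19.9% of all genes tested were lower and 19.6% higher. The same shares of all genes stand beside each count of a gene list below. Of 13 tested components other than C1q and C3, 6 were lower and 2 higher in winter, with a median log2 fold change of −0.32. Only 3 were lower without bear 1317, 3 without bear 1509 and 3 without bear 1512. C1S, which encodes the protease C1s, ranged from 27.5 to 72.1 CPM in summer and from 9.70 to 32.4 CPM in winter. It was lower in 6 of 6 bears, with a log2 fold change of −1.67 ± 0.30 (SE, adjusted p = 0.000686). C1R, which encodes C1r and was named after its values were seen, was also lower in 6 of 6 bears (−0.82, adjusted p = 0.0309). MASP1, a protease of the lectin pathway, fell from 5.71 to 15.6 CPM in summer to 1.05 to 4.47 CPM in winter, at −2.19 ± 0.32 (SE, adjusted p = 0.000174).

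CFP, which encodes properdin, the stabilizer of the alternative pathway convertase, had 15 to 61 reads per summer library and 1 to 4 per winter library. Pooled over the seasons, the ratio of winter to summer was 0.0741, with an exact 95% interval of 0.0398 to 0.127. This interval, like that of every pooled ratio below, covers counting error only and leaves out the spread between bears. The fitted log2 fold change of CFP was −3.66 ± 0.46 (SE, adjusted p = 6.25e-05). C2, the component cleaved by C1s, was lower in 5 of 6 bears, at −1.22 ± 0.46 (SE, adjusted p = 0.0478). Bear 1511 had 6.08 CPM of it in winter, within the summer range of 3.34 to 6.99 CPM. C2 was no longer called without bear 1305 (adjusted p = 0.135), 1316 (0.0717), 1317 (0.165), 1509 (0.0581) or 1512 (0.115).

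The rises were those of C8A and COLEC11. C8A, a subunit of the membrane attack complex, ranged from 3.05 to 7.42 CPM in summer and from 7.16 to 18.9 CPM in winter, higher in 6 of 6 bears with a log2 fold change of 1.41 ± 0.27 (SE, adjusted p = 0.00105). COLEC11, a collectin that activates the lectin pathway, rose from 0.313 to 0.728 CPM in summer to 1.08 to 2.90 CPM in winter, at 1.80 ± 0.31 (SE, adjusted p = 0.000551) on 8 to 69 reads per library.

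Of 10 tested regulators of complement 3 were lower and 0 higher, the latter also at an unadjusted p below 0.05 and with the replicate block, and they had a median log2 fold change of −0.24. Among them, named after their values were seen, were SERPING1, the C1 inhibitor (−0.51, adjusted p = 0.0096), and CFI, factor I, which lay at the threshold (−0.84, adjusted p = 0.04998). Of 8 tested receptors 4 were lower and 0 higher, 0 at an unadjusted p below 0.05, with a median of −0.74. ITGB2, the beta chain shared by the C3 fragment receptors CR3 and CR4, fell from 3.26 to 5.05 CPM in summer to 0.814 to 2.47 CPM in winter (log2 fold change −1.28 ± 0.24 SE, adjusted p = 0.000944). Its partner in CR4, ITGAX, was lower in 5 of 6 bears at −1.19 (adjusted p = 0.00747). Its partner in CR3, ITGAM, had 2.34 to 8.82 CPM in summer and 2.77 to 6.20 CPM in winter (−0.14, adjusted p = 0.714), and its value was 0.0061 without bear 1509. VSIG4, a C3b receptor of resident macrophages, was higher in winter in 5 of 6 bears but not called, at 0.35 (adjusted p = 0.212), and C3AR1, the receptor of the C3a fragment, was not called at −0.71 (adjusted p = 0.111).

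**Figure D3:**
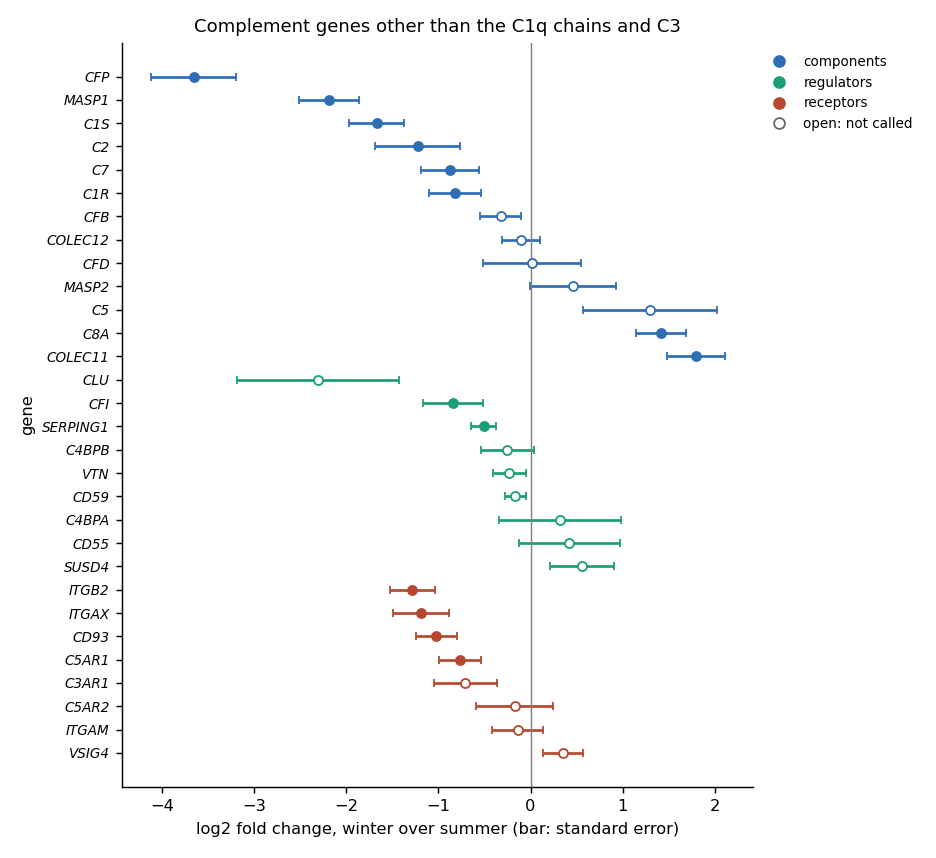
Log2 fold change of winter over summer with its standard error for complement genes other than the C1q chains and C3, coloured as components, regulators and receptors, with filled points where the gene was called. Of the filled points CFP and MASP1 lie farthest to the left, at −3.66 and −2.19, and C8A and COLEC11 are those to the right, at 1.41 and 1.80.

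For CSF1R, both ligands were measured. IL34 ranged from 2.82 to 6.01 CPM in summer and from 1.91 to 3.07 CPM in winter and was lower in 6 of 6 bears, at −0.91 ± 0.21 (SE, adjusted p = 0.00367). CSF1, at −0.66 ± 0.29 (SE, adjusted p = 0.0812), missed the threshold with 5 of 6 bears lower. A replicate block for the bear brought it past the threshold (−0.73, adjusted p = 0.022), as did limma voom (−0.79, adjusted p = 0.0291) and leaving out bear 1511 (−0.93, adjusted p = 0.0157). Counted with 10 myeloid transcription factors, 6 of these 12 genes were lower and 0 higher (0 at an unadjusted p below 0.05 and 0 with the replicate block), with a median of −0.78, and 3 were lower without bear 1316. SPI1, which encodes the master factor PU.1 of myeloid cells, was lower in 6 of 6 bears at −1.07 ± 0.35 (SE, adjusted p = 0.0249) on 5 to 36 reads per library. The call was lost without bear 1316 (adjusted p = 0.0904), 1509 (0.051) or 1511 (0.0761). BATF3, a factor of dendritic cells, had 27 reads over the summer libraries and 3 over the winter libraries (−2.73, adjusted p = 0.0107), a pooled ratio of 0.122 with an exact 95% interval of 0.0238 to 0.398.

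Other macrophage and monocyte markers were mostly lower where they were called. Of 26 tested, 10 were lower and 2 higher, where 19.9% and 19.6% of all genes tested were. The other 14 were not called, among them LYVE1 (−0.08), MERTK (0.16) and CX3CR1 (−0.75), named after their values were seen. The median log2 fold change of the 26 was −0.57. Their summed level was lower in winter in 6 of 6 bears, at 109.6 to 180.2 CPM in summer and 73.4 to 136 CPM in winter. MSR1, the class A scavenger receptor, fell most, from 2.81 to 5.53 CPM in summer to 0.281 to 1.77 CPM in winter (log2 fold change −2.64 ± 0.40 SE, adjusted p = 0.000232). TIMD4, a phosphatidylserine receptor of long-lived resident macrophages, fell from 2.86 to 5.08 CPM to 0.195 to 1.99 CPM (−2.14 ± 0.48 SE, adjusted p = 0.00325). For both genes the winter library of bear 1509 was the highest of its season, and without it the values were −3.28 and −2.53. FCGR1A, the high-affinity IgG receptor, was higher in winter in 6 of 6 bears at 0.96 ± 0.28 (SE, adjusted p = 0.0135). FCGR1A lost its call without bear 1305 (adjusted p = 0.0715). Of this list 0 genes were higher without bear 1305, and 1 each without bear 1316 or 1512.

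**Figure D4:**
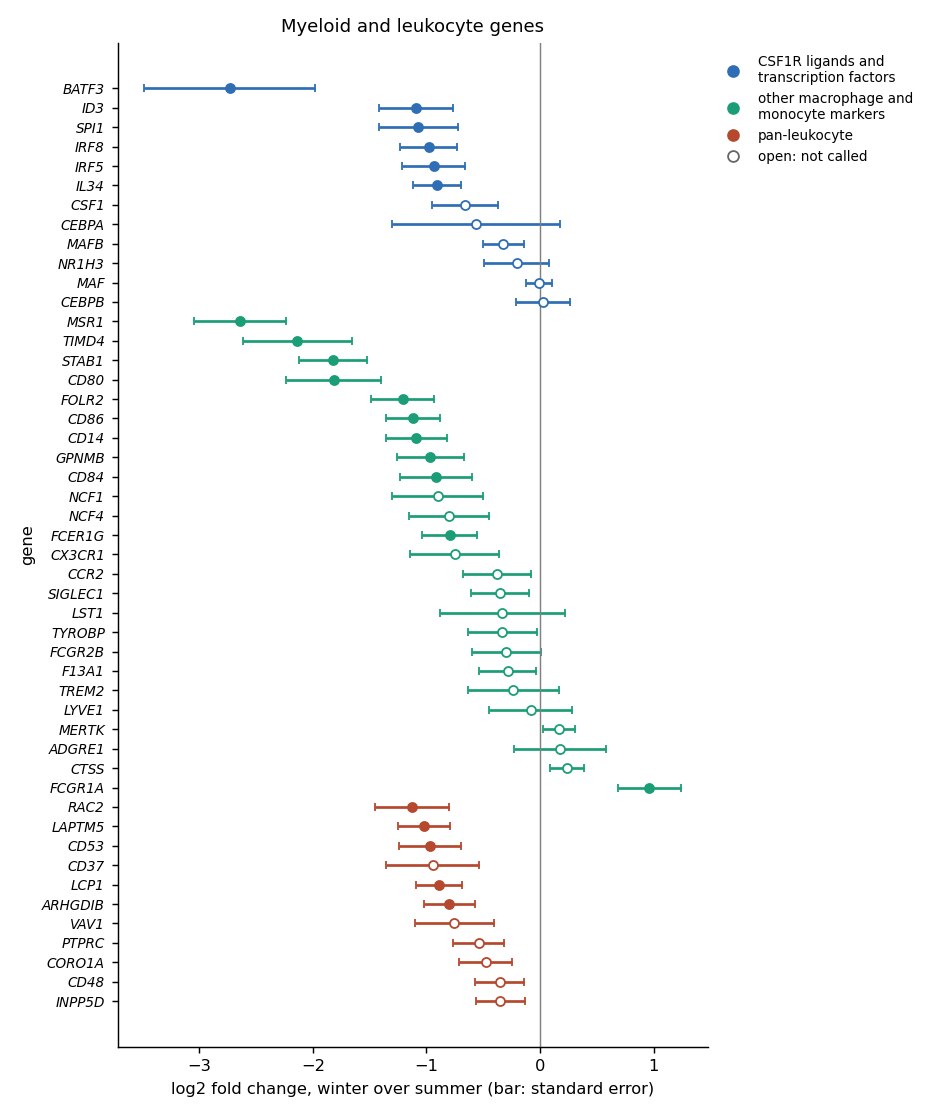
Log2 fold change of winter over summer with its standard error for CSF1R ligands and myeloid transcription factors, other macrophage and monocyte markers and pan-leukocyte genes, with filled points where the gene was called. MSR1 and TIMD4 lie at −2.64 and −2.14, FCGR1A at 0.96, and every pan-leukocyte gene lies left of 0.

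Genes expressed in leukocytes at large were lower for 5 of 11 and higher for 0 (0 at an unadjusted p below 0.05 and 0 with the replicate block), with a median of −0.80. PTPRC, which encodes the pan-leukocyte antigen CD45, ranged from 5.63 to 10.6 CPM in summer and from 3.66 to 8.65 CPM in winter and was lower in 5 of 6 bears at −0.54 ± 0.22 (SE, adjusted p = 0.0676). It was called with the replicate block (adjusted p = 0.0443), by limma voom (0.0497) and without bear 1305 (0.0177). RAC2, a GTPase of blood cells, was lower in 6 of 6 bears at −1.13 ± 0.32 (SE, adjusted p = 0.0133). Both tested genes of class II antigen presentation fell, CD74, the invariant chain, at −1.29 ± 0.23 (SE, adjusted p = 0.000663) and CIITA, the class II transactivator, at −1.16 (adjusted p = 0.00127), without overlap between the seasons. Of 16 chemokines and cytokines 3 were lower and 3 higher, near the 19.9% and 19.6% of all genes tested. With the replicate block 3 were lower and 2 higher. CCL21, a chemokine of lymphatic vessels, was at −2.47 ± 0.46 (SE, adjusted p = 0.000984) and CXCL14 at 2.09 ± 0.29 (SE, adjusted p = 0.000101), from 2.37 to 6.77 CPM in summer to 11.97 to 30.9 CPM in winter.

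The 12 tested markers of T, B and NK cells summed to 5.47 to 8.84 CPM in summer and 4.03 to 6.86 CPM in winter, and 5 were lower and 1 higher. The 5 became 3 with the replicate block, 3 each without bear 1305, 1509 or 1511, 2 without bear 1512 and 1 without bear 1316. CD3E, a chain of the T cell receptor complex, was at −1.44 (adjusted p = 0.0114) on 2 to 24 reads per library. The neutrophil, mast and dendritic cell markers summed to 13.2 to 36.9 CPM in summer and 15.2 to 26.3 CPM in winter. Over all libraries KIT held most reads of this list (3861), against 773 for CPA3 and 515 for CSF3R. Of 11 tested, 3 were lower and 0 higher (0 at an unadjusted p below 0.05), among them CLEC9A with 36 reads over the summer and 7 over the winter libraries (−2.09, adjusted p = 0.0236, pooled ratio 0.214 with an exact 95% interval of 0.0804 to 0.488). CLEC9A lost its call without bear 1316 (adjusted p = 0.0629), 1317 (0.0502) or 1512 (0.0656). The 3 became 1 each without bear 1305, 1316 or 1511 and 0 each without bear 1317 or 1512.

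Markers of other cells in the biopsies moved with season as well, and their part in the falls of the 9 genes was not tested. Of 12 fibroblast markers 9 were lower and 0 higher (0 at an unadjusted p below 0.05). They summed to 4467 to 11823 CPM in summer and 326 to 2015 CPM in winter, with COL1A1 at −4.59 ± 0.69 (SE, adjusted p = 0.000203). Over all libraries the collagen genes COL3A1, COL1A2 and COL1A1 held most reads of this list (484813, 296541 and 218330). By gene, the log2 fold changes of the 12 had a median of −1.79 and ran from −4.59 to −0.49. Endothelial markers were lower for 6 of 11 and higher for 2, summing to 724 to 1034 CPM in summer and 523 to 601 CPM in winter. VWF, the von Willebrand factor, was at −1.28 (adjusted p = 3.69e-05) and CLDN5, a tight junction protein, at 0.81 (adjusted p = 0.0295). CLDN5 lost its call without bear 1305 (adjusted p = 0.0506), 1317 (0.107), 1511 (0.0957) or 1512 (0.0502), and 1 endothelial marker was then higher in each case. Adipocyte markers were lower for 3 of 10, with LPL, lipoprotein lipase, at −1.78 (adjusted p = 0.000113), and higher for 1, LEP, which encodes leptin. LEP had 0 to 4 reads per summer library and 0 to 19 per winter library (2.79, adjusted p = 0.0366). Its pooled ratio was 7.08, with an exact 95% interval of 3.17 to 18.6 that covers counting error only. By bear LEP was higher in 4 of 6 and lower in 2, from −1.07 to 3.28 on the log2 scale. It was not called with the replicate block (adjusted p = 0.0629), by limma voom (0.134) or without bear 1317 (0.1), 1511 (0.146) or 1512 (0.105). Without bear 1316, 2 adipocyte markers were higher.

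Red cell markers summed to 61.3 to 110.1 CPM in summer and 77.3 to 120.1 CPM in winter, higher in winter in 5 of 6 bears. Over all libraries GYPC held most reads of this list (15812), followed by HBA1 (9709), against 203 for ALAS2, 194 for EPB42 and 35 for AHSP. Of the 5 tested, 1 was lower, EPB42 (−3.95, adjusted p = 0.00308), with 184 reads over the summer and 10 over the winter libraries, a pooled ratio of 0.0598 with an exact 95% interval of 0.0282 to 0.113. Without the winter library of bear 1509, which held 8 of these 10 reads, its log2 fold change was −5.85. None was higher in edgeR (0 at an unadjusted p below 0.05, 0 with the replicate block), though 1 was without bear 1509. Muscle fibre genes were lower for 4 of 13 and higher for 2, with MB, myoglobin, at −1.01 (adjusted p = 0.000639) and TTN, titin, at 0.65 (adjusted p = 0.0036). Their sum of 138104 to 211156 CPM in summer overlapped that in winter, at 132534 to 178756 CPM.

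**Figure D5:**
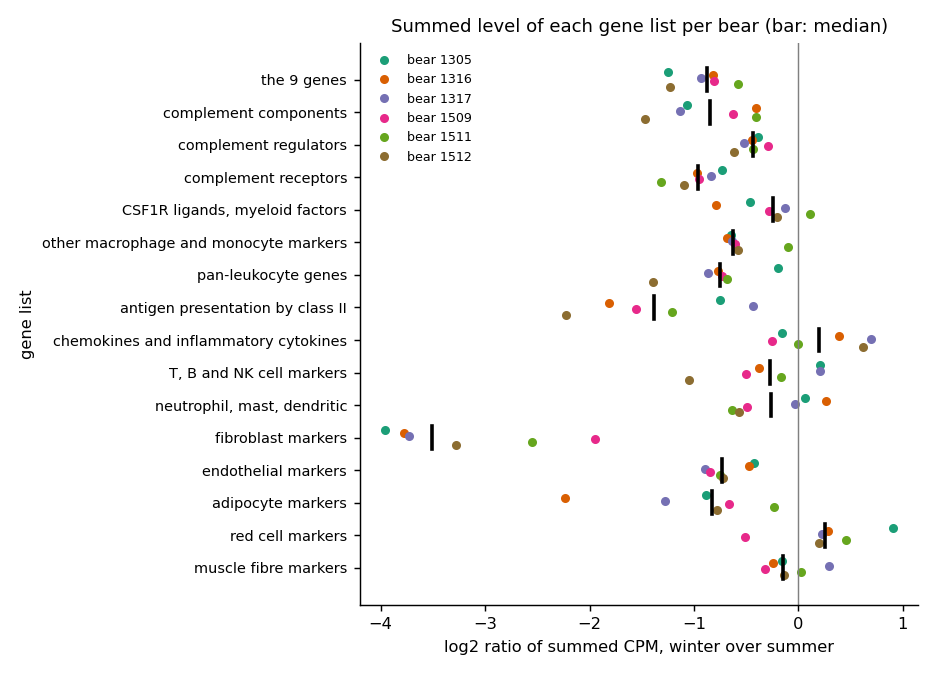
Log2 ratio of winter to summer in the summed CPM of each gene list, with a circle for each bear and a bar at the median of 6 bears. The 9 genes lie left of 0 in 6 of 6 bears, as do, among others, the fibroblast and endothelial lists. The fibroblast list, whose reads were mostly those of collagen genes, lies farthest to the left.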

How the data were processed

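The data were the 12 vastus lateralis libraries of 6 bears, 1 per season and bear. The authors aligned 50-base single reads from stranded poly-A libraries to ASM358476v1 (TopHat2 2.1.1) and counted them by gene and strand (featureCounts 1.6.2). The deposited values are these read counts, neither normalized nor filtered. RNA without a poly-A tail is left out by such libraries. Which library ran on which lane is not given in the sources used here, and lanes were not tested.

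Genes under 30 reads over all libraries, with 0.019% of the reads, were left out. R 4.3.3 with edgeR 4.0.16 (TMM, glmQLFit, glmQLFTest, season as the only term), limma 3.58.1 and DESeq2 1.42.0 were used. Log2 CPM took a prior count of 2. The alternatives were the bear as a replicate block, DESeq2, limma voom, RLE normalization, library totals, other filters, stricter thresholds, each bear left out and the winter library of bear 1509 left out (for correlations, added after seeing the data). Season alone was fitted because the study's methods give no design formula, although the libraries are paired by bear. The main p-values therefore leave out this pairing, which the replicate block takes in.

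Summer and winter libraries with one number come from one animal, according to the study's methods. After centring by season, both libraries of one animal correlated at 0.0903 to 0.344, and libraries of different animals at a median of −0.0634. The lowest chi-square per gene between libraries of a season was 39, so no library was a copy of another.

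The genes and lists were chosen with earlier results of these data known. Genes named were the 9, 8 set by name (CSF1, IL34, C3AR1, ITGAM, ITGB2, VSIG4, SPI1, PTPRC), up to 6 called complement genes of largest change in each direction, the called gene of largest change in each direction of each other list (2 for macrophage markers), and the 3 genes most correlated with each of the 9. Listed symbols without a row were looked up by RefSeq gene ID in the UrsArc2.0 gene table, which gave FOLR2, FCGR1A, CCL8, C8G, MYH1 and MYH7; symbols with neither, such as C4A, CR1 and most class II genes, were not analysed here. The adipocyte and component lists share CFD. A few genes that the rule or the counts include are not reported here by name, nor shown in the plots of single genes. Tested on simulated counts for 17290 genes, 200 of them changed, edgeR found 72% of the 2-fold and 98% of the 4-fold changes, with 6 false calls. The simulation changed only genes above a minimum level, far fewer than were called here, and had no bear effect. Its rates need not hold for genes with few reads or for these paired libraries.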

Additional observations from a re-analysis of the deposited data

Results flagged for a closer look

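Dixon's test at the 95% level (critical value 0.625) compares the distance from an extreme library to its neighbour with the whole range of that season's 6 libraries, and values past it are given here. They came from 6 of 120 sets of libraries, and chance gives about 1 in 20. MRC1 lay at 5.24 log2 CPM in the winter library of bear 1509 and at 4.29 to 4.59 in the other winter libraries. MSR1 lay at 0.89 in that library against −1.44 to −0.70, and EPB42 at −0.92 against −3.53 to −2.72. SPI1 lay at −0.15 in the winter library of bear 1305 and at −1.46 to −0.98 in the others. The complement receptors summed to 363 CPM in the summer library of bear 1509 and to 186 to 241 CPM in the other summer libraries. Most of each sum was a single gene of that list, CD93, at 168 to 336 CPM in summer, named after its values were seen. It had 44477 reads over all libraries, against 743 for ITGB2 and 399 for C3AR1. CD93 was also among the 4 genes of the list called lower in winter (−1.02, adjusted p = 0.00255). Whether this sum follows complement receptors was not tested. The adipocyte markers summed to 2877 CPM in the summer library of bear 1316 and to 1663 to 1779 CPM in the others. Over all libraries GPD1, FABP4 and LPL held most reads of this list (209109, 96345 and 68434), against 15919 for ADIPOQ. Whether the sum follows the fat in a biopsy was not tested.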

How the results depend on the processing

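Fold limits of 1.3 and 0.77 with an adjusted p below 0.01 left 4 of the 9 genes lower (C1QA, C1QB, C1QC and C3), as 12% of all genes tested were, and 4157 genes in all in place of 6831. With each bear left out in turn, 4 to 6 of the 9 were lower, and 5246 to 6495 genes were called in all. Every alternative kept the sign of all 9 changes, and of 144 values 17 lost a call and 1 gained it. These were values of CSF1R, MRC1, AIF1 and CD68, and came from leaving out bears or from the stricter limits. With the bear as a replicate block in edgeR the adjusted p was 0.00849 for CSF1R, 0.013 for MRC1 and 0.00981 for AIF1. For CD68 it was 0.0901 and for CD163 0.0964. This block changed no call among the 9 genes. It added CSF1 and PTPRC and removed LEP among the other named genes, as did limma voom. The difference in seasonal change between MRC1 and CD68 ran from −0.041 to 0.59 with each bear left out, the sign turning without bear 1509, and ITGAM ran from −0.30 to 0.0061. Library totals moved the share of calls that were higher from 49.6% to 41.7%. Depth limits CD68, SPI1, CFP and the lymphoid markers, with few reads per library.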
